A study of Homo sapiens with 2 samples.

Results

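Serpins are a superfamily of proteins named for the serine protease inhibitors among them. A serpin exposes a reactive loop that a target protease cuts as if it were a substrate, and the serpin then changes shape and traps the protease in a stable complex, so that each molecule works once. Human serpins are divided into clades A to I. Clade A holds mostly liver-derived plasma inhibitors, clade B holds mostly intracellular inhibitors without a classical signal peptide, and the small clades C to I include antithrombin, protease nexin-1, C1 inhibitor and the collagen chaperone HSP47. In epithelial and tumour cells, serpins are known chiefly as regulators of the plasminogen system, of granzymes and of lysosomal cathepsins.

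The serpins of the array were taken as all gene probes whose gene name was SERPIN followed by a clade letter from A to I and a number. This gave 36 genes out of 25940 gene names, with 45 of the 34127 gene probes. Clade A had 12 genes, clade B 13, clade E 3, clades F and I 2 each, and clades C, D, G and H 1 each. SERPING1 had 4 probes, SERPINA3 had 3, SERPINA1, SERPINB2, SERPINB6 and SERPINB11 had 2 each, and the other genes had 1.

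The data were collected from MKN74 and MKN45, both established human gastric cancer cell lines, after transient knockdown of SET7/9, a lysine methyltransferase encoded by SETD7. Cells of each line received 50 nM of SET7/9 siRNA or of negative control siRNA by electroporation, and total RNA was taken 48 hrs later. One two-colour Agilent array was hybridised per line, with SET7/9 siRNA cells in Cy5 and negative control cells in Cy3 on both, and no dye swap and no replicate were made. Which SET7/9 siRNA was used on the arrays was not given in the sources used here. The log2 ratio of Cy5 over Cy3 is the knockdown ratio below. Its error is that of the scanner software's model of the spot and is not a replicate SD, and the number of arrays limits the precision of every value. No p-value was computed within a cell line.

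Promoters of the serpins whose knockdown ratios are described most closely below are shown as the 250 bases before the start of the gene, from RefSeq. They are shown for SERPINA3, SERPINB9, SERPINE2 and SERPINB2, which passed the cutoff with both channels well above background in at least 1 line, and for SERPINB5, whose ratios had opposite signs in the lines. Capitals mark matches on either strand to GGGNNNNNCC or to TGANTCA. The former is a loose pattern that is wider than that of NF-kB sites, so that a match is not an NF-kB site by itself. The latter is also loose and takes in the AP-1 sites TGACTCA and TGAGTCA, but also TGAATCA and TGATTCA. TTCNNNGAA, a pattern of STAT sites, was also searched and had no match in these windows. Neighbouring capitals can be overlapping matches.
SERPINA3 (GRCh38.p14 chr14:94612141-94612390, plus strand): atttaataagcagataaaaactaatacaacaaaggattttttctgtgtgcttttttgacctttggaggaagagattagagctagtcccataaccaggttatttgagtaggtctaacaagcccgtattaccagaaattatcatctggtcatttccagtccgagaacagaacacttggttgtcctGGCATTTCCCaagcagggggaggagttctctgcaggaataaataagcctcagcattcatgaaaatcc
SERPINB9 (GRCh38.p14 chr6:2903310-2903559, minus strand): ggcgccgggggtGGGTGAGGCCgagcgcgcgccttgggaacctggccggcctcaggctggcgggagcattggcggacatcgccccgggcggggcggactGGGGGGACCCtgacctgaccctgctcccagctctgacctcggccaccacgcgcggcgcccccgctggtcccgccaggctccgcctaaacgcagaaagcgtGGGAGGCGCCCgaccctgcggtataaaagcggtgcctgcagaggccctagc
SERPINE2 (GRCh38.p14 chr2:224038641-224038890, minus strand): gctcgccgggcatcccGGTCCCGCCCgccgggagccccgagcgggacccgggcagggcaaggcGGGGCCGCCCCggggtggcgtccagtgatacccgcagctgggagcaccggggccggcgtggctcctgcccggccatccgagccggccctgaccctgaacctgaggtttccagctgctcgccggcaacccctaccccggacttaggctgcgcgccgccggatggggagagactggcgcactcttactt
SERPINB2 (GRCh38.p14 chr18:63887455-63887704, plus strand): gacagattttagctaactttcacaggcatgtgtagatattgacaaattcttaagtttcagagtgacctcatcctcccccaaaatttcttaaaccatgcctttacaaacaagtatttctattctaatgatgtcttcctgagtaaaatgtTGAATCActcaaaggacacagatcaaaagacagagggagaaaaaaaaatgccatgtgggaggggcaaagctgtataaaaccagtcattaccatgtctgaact
SERPINB5 (GRCh38.p14 chr18:63476708-63476957, plus strand): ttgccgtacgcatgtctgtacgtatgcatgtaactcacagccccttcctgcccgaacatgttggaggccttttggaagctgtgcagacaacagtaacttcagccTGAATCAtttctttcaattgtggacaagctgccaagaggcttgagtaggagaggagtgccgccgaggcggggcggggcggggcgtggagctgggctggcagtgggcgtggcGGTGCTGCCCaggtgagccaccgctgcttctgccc
Among 35116 promoter windows of this length, 54.4% held GGGNNNNNCC, 6.57% held TGANTCA and 6.57% held TTCNNNGAA. Of the 36 serpin genes, 27 had at least 1 promoter in the table, in 41 windows, some of them of the same gene. Of these windows 21 held GGGNNNNNCC, 9 held TGANTCA and 8 held TTCNNNGAA. TGANTCA was found at 6 of the 8 clade B genes of chromosome 18 that had a promoter, and at 0 of the 3 of chromosome 6. Some of these genes had several windows, while 6.57% is a share of windows. No share by gene was computed, so these counts by gene have no background to be read against. SERPINB2 and SERPINB5 carried the same 7 letters, TGAATCA, and neither TGACTCA nor TGAGTCA. SERPINA3, SERPINB9 and SERPINE2 had matches to the first pattern only. These matches are a description of letters, and no binding was measured. A further SERPINE2 start in the table had no match to any of the 3 patterns.

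SETD7 was checked first, and its knockdown ratios were -2.03 (MKN74, error 0.28) and -1.95 (MKN45, error 0.28) at a first probe, and at 0.24 (error 0.22) and -0.23 (error 0.21) at another. All 6 epithelial marker genes passed background in the control channel of both lines. Of 4 fibroblast, 4 leukocyte, 3 endothelial and 4 hepatocyte marker genes, 1, 1, 1 and 0 did so in MKN74 and 2, 2, 2 and 1 in MKN45. Signals summed over the probes of each list, with the control and then SET7/9 siRNA, were at log2 7.64 and 7.54 for fibroblast, 6.60 and 6.68 for leukocyte, 6.31 and 6.21 for endothelial and 4.89 and 5.13 for hepatocyte genes in MKN74. In MKN45 they were at 6.03 and 6.25, 6.56 and 6.72, 5.69 and 5.56, and 7.06 and 7.42. Of these probes, 1 of APOA1 in MKN74 and 1 each of CD3E and PTPRC in MKN45 were at least 1.5-fold higher and 1 endothelial probe in MKN45 was lower, with 1 channel not well above background. The part of other cell types in the serpin values was not tested.

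Most serpins were not measurable in these gastric cancer cells. A probe was used on an array if at least 1 channel was well above background, as marked by the scanner software. This held for 16 of the 45 serpin probes (35.6%) in MKN74 and 18 (40%) in MKN45, against 60.6% and 66.9% of all gene probes. By gene, 13 serpins were measurable in MKN74, 14 in MKN45, 11 in both and 20 in neither. In clade B, 7 of 13 genes were measurable in at least 1 line, and in clade A 4 of 12. SERPINE2, SERPINF1, SERPING1 and SERPINH1 were measurable, and no gene of clades C, D and I was.

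The genes not well above background in either line were mostly plasma or skin serpins. In clade A these were SERPINA2, SERPINA5 (protein C inhibitor), SERPINA7 (thyroxine-binding globulin), SERPINA9, SERPINA10 (protein Z-dependent inhibitor), SERPINA11, SERPINA12 (vaspin) and SERPINA13. In clade B they were SERPINB3 and SERPINB4, the squamous cell carcinoma antigens, and SERPINB7, SERPINB11, SERPINB12 and SERPINB13. SERPINC1 (antithrombin), SERPIND1 (heparin cofactor II), SERPINE3, SERPINF2 (alpha-2-antiplasmin), SERPINI1 (neuroserpin) and SERPINI2 completed this set. For these only a signal not well above background can be stated.

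With SET7/9 siRNA, 2 of the 16 measured serpin probes in MKN74 and 6 of the 18 in MKN45 were at least 1.5-fold higher than with the negative control, and 0 were at least 1.5-fold lower in either line. The higher probes belonged to SERPINB2 and SERPINE2 in MKN74, and to SERPINA3 (all 3 probes), SERPINA4, SERPINB9 and SERPINE2 in MKN45. Among all measured probes, 3.78% were higher and 1.76% lower in MKN74, and 4.81% were higher and 1.97% lower in MKN45. With both channels well above background, 1 of 14 serpin probes was higher in MKN74 against 0.64% of all probes (lower: 0 against 1.45%), and 5 of 16, from 3 genes, in MKN45 against 0.814% (lower: 0 against 1.62%). The probes past the cutoff with a control channel not well above background were SERPINE2 in MKN74 and SERPINA4 in MKN45, and their ratios rest on that signal. The 3 SERPINA3 probes share a transcript and are not separate observations. The measured serpins did not move as a group, since their median knockdown ratio was 0.06 in MKN74 and 0.07 in MKN45, beside 0.01 in each line for all measured probes, and 9 of 16 and 9 of 18 were above 0. With normexp used to correct the background and loess to normalize the dyes, only SERPINB2 in MKN74 stayed past the cutoff, and 0 serpin probes did in MKN45.

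**Figure D1:**
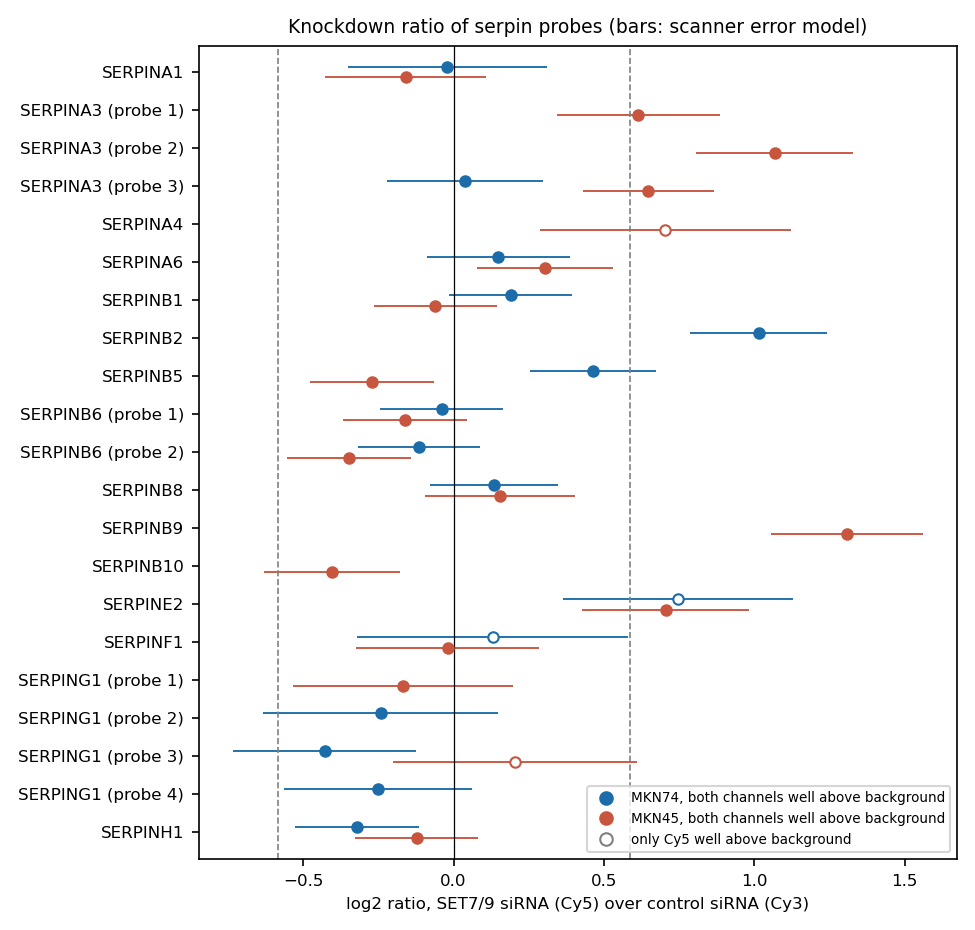
Knockdown ratio (log2 of SET7/9 siRNA over negative control siRNA, x axis) of the measured serpin probes described here in MKN74 (blue) and MKN45 (red), with the scanner software's error as bars, open circles where only Cy5 was well above background, and dashed lines at 1.5-fold. SERPINB2 in MKN74 and SERPINB9 and 1 SERPINA3 probe in MKN45 lie at 1.01, 1.31 and 1.07, and no probe lies past the lower line.

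SERPINB2, plasminogen activator inhibitor 2, which inhibits urokinase and is largely kept inside the cell, had the largest knockdown ratio among the serpins in MKN74. At its probe on chromosome 18 of GRCh37 from 61570202 to 61570261, the log2 signal was 6.73 with the negative control and 7.74 with SET7/9 siRNA, a ratio of 1.01 (error 0.23) or 2.02-fold. The ratio was 0.73 after normexp and loess. In MKN45 the same probe was not well above background in either channel. The other SERPINB2 probe, from 61538974 to 61539033 and designed on a different transcript, was not well above background in either line.

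SERPINB9, which inhibits granzyme B inside cytotoxic lymphocytes and in cells exposed to them, had the largest ratio in MKN45. Its probe on chromosome 6 from 2887562 to 2887621 was at a log2 signal of 5.13 with the negative control and 6.44 with SET7/9 siRNA, a ratio of 1.31 (error 0.25) or 2.47-fold. After normexp and loess the ratio was 0.53, below the cutoff of 0.58. Neither channel passed background in MKN74, so that the response of SERPINB9 could be measured in MKN45 only.

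SERPINA3, alpha-1-antichymotrypsin, is an acute-phase plasma serpin that inhibits cathepsin G and is also made by epithelial cells. In MKN45 its log2 signals went from 4.67 to 5.29 at the probe from 95081183 to 95081242 on chromosome 14, from 4.99 to 6.06 at that from 95088682 to 95088741, and from 6.64 to 7.29 at that from 95090330 to 95090389. The ratios were 0.61 (error 0.27), 1.07 (error 0.26) and 0.65 (error 0.22), all in the same direction and each past the cutoff. They were 0.21, 0.49 and 0.35 after normexp and loess, still above 0 and none past the cutoff. In MKN74 the third probe was the only one well above background, at 5.49 with the negative control and 5.53 with SET7/9 siRNA, a ratio of 0.04 (error 0.26). The ratio of the third probe was thus 0.61 higher in MKN45 than in MKN74, a difference that was not tested.

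SERPINE2, protease nexin-1, which inhibits thrombin, urokinase and trypsin-like proteases at the cell surface, was the 1 serpin past the cutoff in both lines, where 0.75% of all probes measured on both arrays were higher and 0.373% lower. At its probe, mapped from 224840597 to 224842295 on chromosome 2, the log2 signal was 4.19 and 4.93 in MKN74 and 4.24 and 4.95 in MKN45. The ratios were 0.75 (error 0.38) and 0.71 (error 0.28). The control channel of MKN74 was not well above background. With that channel set to the dimmest signal still marked as well above background there, SERPINE2 was at least 1.38-fold higher. That value lies under the 1.5-fold cutoff. Bounds of this kind are given below as "at least" and are open to dye bias because the dyes were not swapped. After normexp and loess the ratios were 0.12 and 0.14. In the limma fit of both arrays against 0, SERPINE2 had a mean log2 ratio of 0.73 and a Benjamini-Hochberg adjusted p of 0.287 (unadjusted p = 0.0012). Of the 12 serpin probes measured on both arrays, 0 passed the adjusted threshold in that fit, and SERPINE2 was the 1 with an unadjusted p under 0.05. Over all 19595 probes of the fit, 2569 had an unadjusted p under 0.05. The fit called 0% of the 19595 after adjustment and has 1 residual degree of freedom. SERPINE2 entered it through the Cy5 channel alone in MKN74. It was not part of the fit limited to probes with both channels well above background.

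SERPINA4, kallistatin, which inhibits tissue kallikrein, passed the cutoff in MKN45 on the strength of a dim control channel. Its log2 signal was 3.33, not well above background, with the negative control and 4.03 with SET7/9 siRNA, a ratio of 0.70 (error 0.42) and at least 1.35-fold higher. The ratio was 0.07 after normexp and loess.

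**Figure D2:**
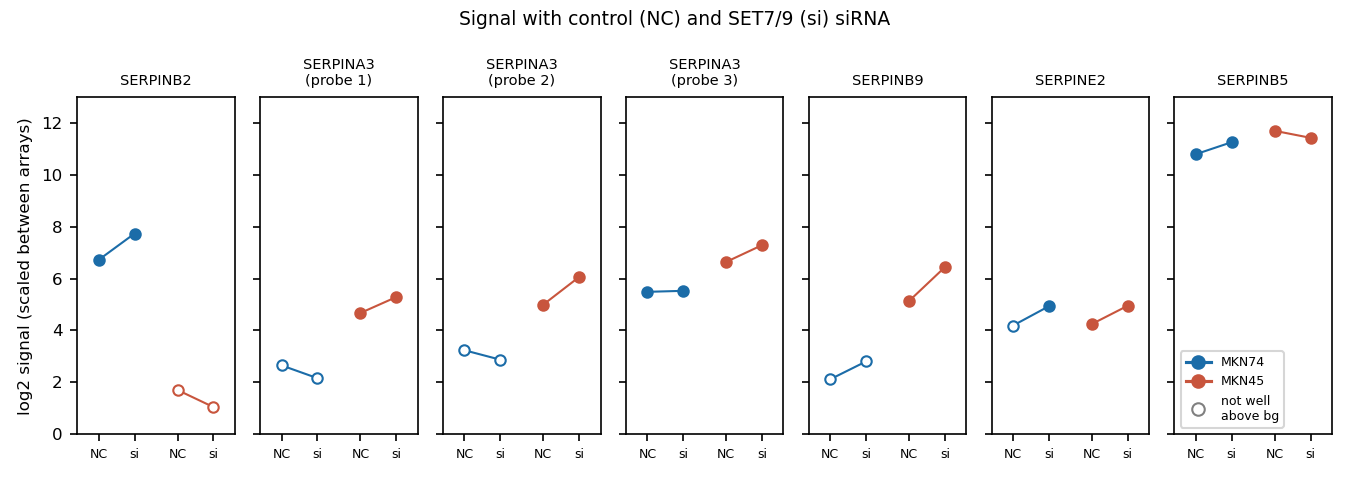
Log2 signal (y axis, scaled between arrays) with negative control (NC) and SET7/9 (si) siRNA in MKN74 (blue) and MKN45 (red) for the probes of SERPINB2, SERPINA3, SERPINB9, SERPINE2 and SERPINB5, with open circles where the channel was not well above background; levels of different probes are not comparable. SERPINB2 is well above background in MKN74 only, SERPINB9 in MKN45 only, and SERPINB5 slopes up in MKN74 and down in MKN45.

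The other clade B serpins stayed within 1.5-fold. SERPINB5, maspin, an epithelial serpin without a known protease target that is studied as a tumour suppressor, went in opposite directions in the lines. Its probe on chromosome 18 from 61172218 to 61172277 was at log2 10.81 and 11.27 in MKN74, a ratio of 0.46 (error 0.21), and at 11.71 and 11.44 in MKN45, a ratio of -0.27 (error 0.21). After normexp and loess these ratios were 0.50 and -0.25.

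SERPINB1, an inhibitor of neutrophil elastase and related granule proteases, had ratios of 0.19 in MKN74 and -0.06 in MKN45, with errors of 0.20. SERPINB6, which inhibits cathepsin G, was at -0.04 and -0.12 at its probes in MKN74 and at -0.16 and -0.35 in MKN45, with errors of 0.20 to 0.21. Both SERPINB6 probes were therefore below 0 in both lines, although the first was at 0.07 in MKN74 after normexp and loess. SERPINB8, an inhibitor of furin, was at 0.13 (error 0.21) and 0.15 (error 0.25). SERPINB10, known from bone marrow cells, was measured in MKN45 only. Its log2 signal there was 5.88 with the negative control and 5.48 with SET7/9 siRNA. The ratio of -0.40 (error 0.23) was the lowest among the measured serpin probes in that line.

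Among the secreted serpins, SERPINA1 (alpha-1-antitrypsin, the main plasma inhibitor of neutrophil elastase) was measured at 1 of its 2 probes, with ratios of -0.02 in MKN74 (error 0.33) and -0.16 in MKN45 (error 0.27). SERPINA6, the corticosteroid-binding globulin, which carries hormone and inhibits no protease, was at 0.15 (error 0.24) and 0.30 (error 0.23). SERPINF1, the anti-angiogenic factor PEDF, was at 0.13 (error 0.45) and -0.02 (error 0.30), with its control channel in MKN74 not well above background.

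SERPING1, C1 inhibitor, which controls the first complement component and plasma kallikrein, was measured at 3 of its 4 probes in MKN74. The ratios were -0.25 (error 0.31), -0.43 (error 0.30) and -0.24 (error 0.39), all below 0 and within the cutoff. After normexp and loess they were 0.01, -0.01 and -0.02. In MKN45, 2 probes were measured, at -0.17 (error 0.37) and 0.20 (error 0.40), with opposite signs. The control channel of the probe at 0.20 was not well above background there.

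SERPINH1, the endoplasmic reticulum chaperone HSP47, which binds procollagen and does not inhibit proteases, was measured in both channels of both lines. Its log2 signal went from 13.68 to 13.35 in MKN74, a ratio of -0.32 (error 0.21), and from 13.77 to 13.65 in MKN45, a ratio of -0.12 (error 0.20).

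In the negative control cells, SERPINB1, SERPINB6, SERPINB9, SERPINB10 and SERPINA3 were more abundant in MKN45, and SERPINB2, SERPINB8 and SERPING1 in MKN74. The control (Cy3) signals of the arrays were compared after scaling between them. Fewer cells expressing a gene and less RNA per cell cannot be told apart in such bulk RNA, and cell line and array cannot be told apart either. Of 21 serpin probes well above background in Cy3 on at least 1 array, 8 were at least 2-fold higher and 6 at least 2-fold lower in MKN45 than in MKN74, against 22.2% and 22.3% of all such probes. With each signal below the dimmest one marked well above background raised to that level, 5 were still at least 2-fold higher and 6 lower, against 17.7% and 22.2%. The SERPINB9 probe and the SERPINA3 probes measured in MKN45 only no longer passed. Only 9 of the 21 passed background in the control channel of both lines. Among these 4 were higher and 1 lower, against 14.4% and 20.7% of all such probes.

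In MKN45, SERPINB1 stood at log2 13.59, which is 7.42-fold higher than in MKN74. SERPINB6 was 3.24-fold and 2.48-fold higher at its probes. SERPINA3 was 2.23-fold higher at the probe measured in both lines, at 6.64 against 5.49, and at least 1.15-fold and 1.44-fold higher at the others. SERPINB10 was at least 2.67-fold and SERPINB9 at least 1.59-fold higher, each well above background in MKN45 only. SERPINB5 was 1.87-fold higher.

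In MKN74, SERPINB2 stood at log2 6.73 and was at least 8.77-fold higher than in MKN45, and in the SET7/9 siRNA cells at least 31.6-fold higher. These bounds rest on different floors in MKN45, log2 3.59 in Cy3 and 2.76 in Cy5, and cannot be compared with each other. SERPINB8 was 3.27-fold higher, at 6.97 against 5.26, with both lines measured. SERPING1 was at least 3.33-fold, 3.27-fold and 2.02-fold higher at 3 probes, while the other probe was at 3.99 in MKN74, not well above background, and 4.03 in MKN45.

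The control levels of SERPINH1 (13.68 in MKN74 and 13.77 in MKN45), SERPINA6 (6.02 and 5.88), SERPINA1 (4.82 and 4.81), SERPINE2 (4.19 and 4.24) and SERPINF1 (4.46 and 4.62) lay within 0.16 on the log2 scale between the lines. The MKN74 control signals of SERPINE2 and SERPINF1 were not well above background.

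**Figure D3:**
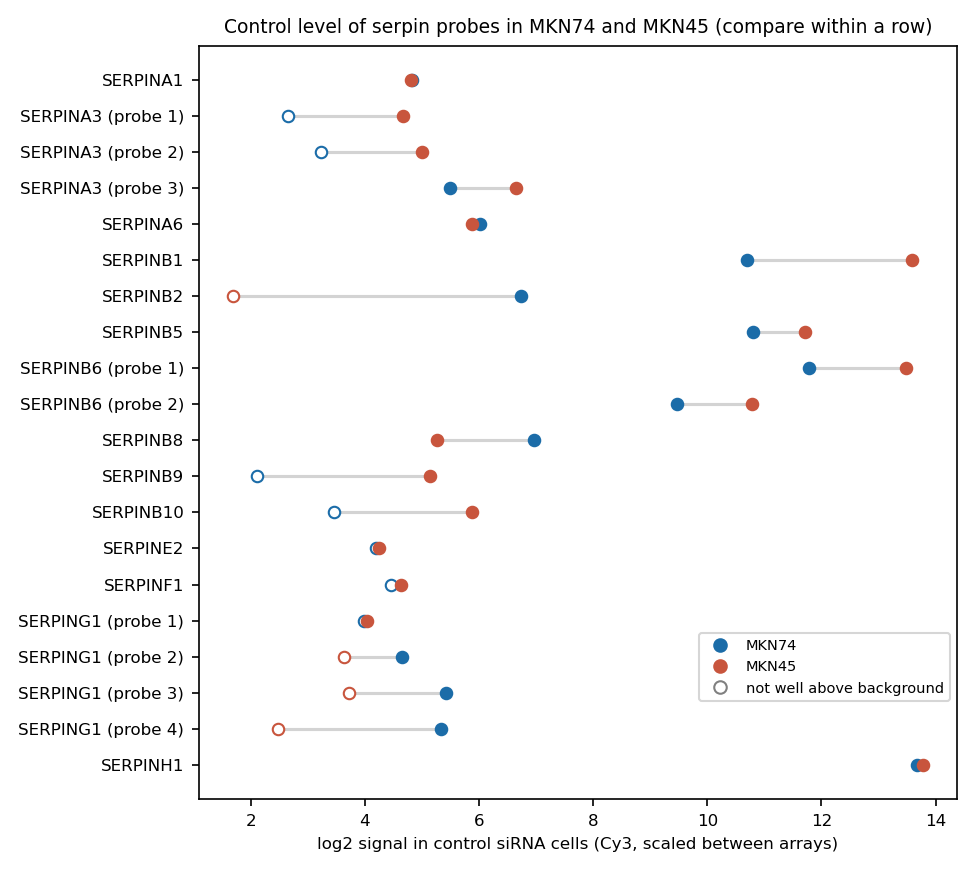
Log2 control signal (Cy3, x axis, scaled between arrays) of the serpin probes described here that were well above background in at least 1 line, with MKN74 in blue, MKN45 in red and open circles where not well above background; values are comparable within a row only. SERPINB1 reaches 13.59 in MKN45, 2.89 above MKN74, SERPINB2 goes from 6.73 in MKN74 to a signal not well above background in MKN45, and the SERPINH1 points nearly coincide.

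Clade B genes lie in a group on chromosome 6 and a group on chromosome 18, which were set beside their neighbours after their values had been seen. In the chromosome 6 group (GRCh37 2833864 to 2955771, SERPINB1, SERPINB9 and SERPINB6), all 4 probes were brighter in MKN45. SERPINB1 and SERPINB6, measured in both lines, were at least 2-fold higher, with log2 differences of 2.89, 1.70 and 1.31, and SERPINB9 was at least 1.59-fold higher. The 20 other measured probes of 16 genes within 1 Mb had a median of -0.24 with dim signals at their bounds, with 2 at least 2-fold higher and 8 at least 2-fold lower. In the chromosome 18 group (61172218 to 61648978), 4 of the 12 probes were measured and had no common direction: SERPINB10 was higher in MKN45, SERPINB2 and SERPINB8 were lower, and SERPINB5 was within 2-fold. The 7 other probes of 6 genes within 1 Mb of that group had a median of 0.19. The knockdown ratios of the chromosome 6 group had no common direction in MKN45, with SERPINB9 at 1.31 and SERPINB6 at -0.16 and -0.35. In the chromosome 18 group, SERPINB5, SERPINB2 and SERPINB8 were all above 0 in MKN74, at 0.46, 1.01 and 0.13, of which SERPINB2 passed the cutoff. In MKN45, SERPINB5 and SERPINB10 were below 0 and SERPINB8 above it, at -0.27, -0.40 and 0.15.

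**Figure D4:**
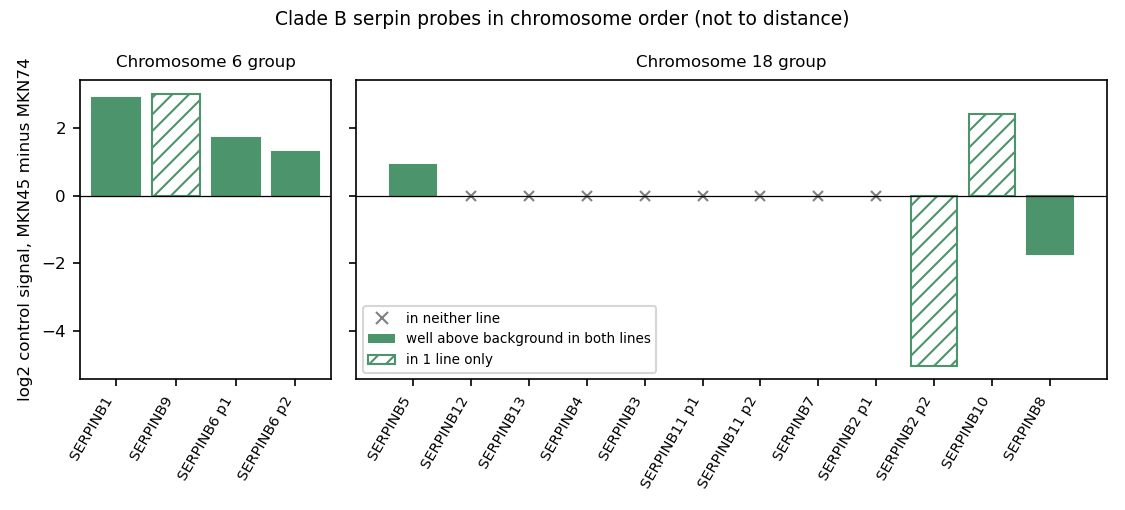
Log2 difference in control signal, MKN45 minus MKN74 (y axis), of the clade B serpin probes in chromosome order, with solid bars where both lines were well above background, hatched bars where 1 line was, and crosses where neither was; p1 and p2 are probes of the same gene. The solid bars of chromosome 6 lie between 1.31 and 2.89, those of chromosome 18 lie on both sides of 0, and hatched bars rest on a signal not well above background in the dimmer line.

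A list of 54 serpin target proteases, receptors and partners was set beside the serpins, and 53 of them were on the array. In MKN74, 5 of 49 measured probes were at least 1.5-fold higher and 2 lower, and in MKN45, 6 of 56 were higher and 1 lower, with medians of 0.02 and 0.10. Over all measured probes 3.78% were higher and 1.76% lower in MKN74, and 4.81% and 1.97% in MKN45. With both channels well above background, 1 of 39 was higher and 2 lower in MKN74, and 1 of 48 was higher and 1 lower in MKN45, against 0.64%, 1.45%, 0.814% and 1.62% of all probes. Of these, GZMB (granzyme B, the target of SERPINB9) had ratios of 0.93 in MKN74 (error 0.22) and -0.34 in MKN45 (error 0.39). CASP1, the inflammatory caspase, was at -0.81 (error 0.39) in MKN74 and not well above background in MKN45. For CTSL1 (cathepsin L) 1 probe was at -0.64 (error 0.22) in MKN74 and the other at 0.05 (error 0.20), so that its probes differed.

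In MKN45, VTN (vitronectin, a plasma and matrix adhesion protein) stood at log2 7.20 with the negative control and was lower with SET7/9 siRNA, at a ratio of -2.20 (error 0.30). In MKN74 its control channel was not well above background and its ratio was 0.83 (error 0.41). C1R, a complement protease inhibited by SERPING1, was at 0.59 (error 0.33) at 1 probe in MKN45 and at 0.24 (error 0.21) at the other. PLAU, urokinase, a target of SERPINB2, was at 0.50 (error 0.21) and 0.54 (error 0.22) at its probes in MKN45. SERPINB2 was not well above background in that line. In MKN74, 1 PLAU probe was at 0.32 (error 0.44) with its control channel not well above background. The other PLAU probe had neither channel well above background there. The urokinase receptor PLAUR was at -0.04 and -0.12 in MKN74 and MKN45. PLAT, tissue plasminogen activator, was at 0.45 (error 0.21) in MKN74. PLAU, PLAUR and PLAT were named for their role after their values had been seen.

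Among 28 protease inhibitors of other families, 27 of them on the array, 0 of 22 measured probes in MKN74 passed the cutoff, and in MKN45 0 of 24 were higher and 1 was lower, against the same shares of all measured probes (3.78% and 1.76%, 4.81% and 1.97%). This was SPINK4, a Kazal-type inhibitor of intestinal goblet cells, which went from log2 13.74 to 12.85 in MKN45, a ratio of -0.89 (error 0.22), and was not well above background in MKN74. Of 13 genes for collagens and collagen-modifying enzymes that work with SERPINH1, 0 of the 15 probes with both channels well above background in MKN74 and 0 of 17 in MKN45 passed the cutoff. Of all probes measured in both channels, 0.64% were higher and 1.45% lower in MKN74, and 0.814% and 1.62% in MKN45, so that counts of 0 are near the background. A probe of COL4A1 in MKN74, with its control channel not well above background, was the 1 past it.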

How the data were processed

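Total RNA of negative control and SET7/9 siRNA cells was hybridised to 2 arrays, 1 per cell line, which shared a slide and scan. The scanner files deposited by the authors come from Agilent Feature Extraction (version 10.7.3.1 in the submitters' processing notes). In them, the deposited intensity of each channel is linear, and is given raw as well as background-subtracted and dye-normalized by the software. The deposited log10 ratio, Cy5 over Cy3, was computed from the normalized signals and comes with an error. The deposited p-value of that ratio is from the software's error model. Other deposited columns are flags for outliers and for signal well above background. A log2 ratio table with 34127 rows was deposited too. It matched the ratios used here within 0.005 on single-spot probes and has values for 14 (MKN74) and 16 (MKN45) serpin probes. No annotation of exons or UTRs was used here.

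Log10 ratios were converted to log2. Control spots and outlier spots (549 in MKN74 and 534 in MKN45 of 43118 gene spots) were left out and the rest averaged per probe. Probes entered an array's counts when 50% or more of their spots were marked well above background in either channel. The cutoffs were 1.5-fold for knockdown and 2-fold between lines. The pooled SD of log2 ratios over repeated spots was 0.087 over 691 probes of MKN74 and 0.099 over 720 of MKN45. Signals were scaled between arrays by Aquantile (limma 3.58.1, R 4.3.3). For bounds, the dim channel took the higher of its own signal and the lowest signal well above background, which was log2 4.46 in Cy3 and 3.68 in Cy5 for MKN74, and 3.59 and 2.76 for MKN45. limma was tested on simulated data. Normexp used an offset of 50.

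Every serpin enters the counts, and the values of 1 measured gene are not reported here. Values are given for those well above background in both channels on an array or past a cutoff, for SETD7, and for genes of the other lists past the cutoff in both channels. The members and lists were chosen with earlier results of these data known. Of the 36 names, 35 are current in RefSeq and SERPINA13 is now SERPINA13P. Probe coordinates are on GRCh37. Python was version 3.11.15. Alternatives covered background correction, centring, filters, outlier and saturated spots, the deposited table, the error model, the cutoffs, the scaling between arrays and the channel compared.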

Additional observations from a re-analysis of the deposited data

Results flagged for a closer look

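SERPINB5 had knockdown ratios of opposite sign in the cell lines, 0.46 (error 0.21) in MKN74 and -0.27 (error 0.21) in MKN45, so that the ratio in MKN45 minus that in MKN74 was -0.73 on the log2 scale. With 1 array per line this difference was not tested. It was noted because the single arrays of the lines went opposite ways. Both ratios lie within the 1.5-fold cutoff.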

How the results depend on the processing

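With SET7/9 siRNA, the count of higher serpin probes was 2 in MKN74, 6 in MKN45 and 1 in both lines. Under normexp and loess these counts were 1, 0 and 0. In MKN74 the count was also 1 with both channels well above background, with the deposited table, with an error-model p under 0.01 and at a 2-fold cutoff. In MKN45 it was 3 with the error-model p and 2 at 2-fold, and 5 with both channels or the deposited table. The count in both lines was 0 under each of these 4 settings. Over all probes, the higher shares in MKN74 and MKN45 were 0.208% and 0.118% with normexp, and 1.37% and 1.91% at 2-fold. They were 0.64% and 0.814% with both channels, and 0.64% and 0.808% with the deposited table. Of all probes with an error-model p under 0.01, 35.8% and 42.7% were higher, and 1 and 3 serpin probes had such a p. Without a filter on dim probes, 4, 10 and 2 of the 45 serpin probes were higher in MKN74, MKN45 and both lines. Lower were 3, 4 and 1, against 0 with the filter. Over all probes without the filter, 4.57%, 5.73% and 1.2% were higher and 6.35%, 8.17% and 2.3% lower. Normexp also moved the counts over all probes, to 43 higher and 43 lower in MKN74 and 27 and 18 in MKN45, from 781 and 363, and 1097 and 449. The higher share of these calls went from 68.3% to 50% and from 71% to 60%. The median serpin ratio in MKN45 was 0.07, and -0.040 with both channels or the deposited table. Of the genes with several measured probes in MKN74, 2 of 2 had probes of one sign, and 0 of 2 after normexp. Of the single knockdown ratios, 25 of 34 moved by less than their error under normexp and 9 by more. Every serpin ratio past the 1.5-fold cutoff was among these 9, and each became smaller. No serpin result changed direction while past a cutoff. Median centring and keeping outlier spots changed no count of serpin probes. Leaving out saturated spots removed none and so tests nothing.

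Between lines, 8 of 21 serpin probes were higher and 6 lower in MKN45, against 22.2% and 22.3% of all probes. When both arrays had to be well above background, 4 of 9 were higher and 1 lower (all probes: 14.4% and 20.7%). With a dim signal at its bound, chosen after seeing the data, 5 were higher and 6 lower (all probes: 17.7% and 22.2%). Scaling by the 75th percentile gave 8 and 4 (all probes: 26.2% and 18.9%). It moved the median of all probes from -0.03 to 0.15 and that of the serpins from 0.10 to 0.89. The Cy5 channel gave 9 and 6 of 22 (all probes: 22.5% and 22.3%).

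In limma, 0 serpin probes were called under the 4 settings run. The smallest adjusted p among them ranged from 0.0749 (normexp) to 0.344. Over all probes normexp called 1155 higher and 553 lower, and both channels 2 lower. No paired analysis was possible because 1 array per cell line leaves no replicate numbers to block on, beyond the pairing of both siRNAs within each array that every ratio already holds. Leaving out an array leaves no residual degree of freedom.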
